A study of Mus musculus with 6 samples.

Results

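YAP, TAZ and their target genes were read here from genes chosen by name, with no measured value in the rule: the coactivators Yap1 and Wwtr1, the DNA-binding partners Tead1 and Tead4, the target genes Ankrd1, Cyr61 (now Ccn1), Ctgf (now Ccn2) and Axl, and the target genes Amotl2 and Lats2, whose products also restrain YAP and TAZ. These genes, and the lists and tests used below, were nevertheless chosen with earlier results of these data known. Array rows were taken whose annotation gives exactly 1 symbol equal to one of these names. All were found, 10 of 20416 genes on the array, on 119 of its 241576 probe sets.

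YAP, encoded by Yap1, and TAZ, encoded by Wwtr1, are transcriptional coactivators of the Hippo pathway. When the Hippo kinases are active, LATS kinases phosphorylate both proteins and hold them in the cytoplasm. When the kinases are off, as in cells that are spread on a stiff matrix, YAP and TAZ enter the nucleus and bind DNA through TEAD transcription factors. The genes they switch on include matricellular proteins that are widely studied in fibrotic kidneys. YAP and TAZ are regulated mainly at the level of the protein and its location, which an mRNA array does not measure.

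The study asks whether inbred strains differ in how strongly TGF-β1, a cytokine that drives matrix deposition, scars the kidney. Total RNA of mouse kidneys with induced renal fibrosis was measured on 6 arrays in 2 groups of 3. The CBAxB6-TGFbeta group (replicates 4, 5 and 6) carries the word KO in its labels and the B6-TGFbeta group (replicates 1, 2 and 3) the word WT. No knocked-out gene is named, and how TGF-β1 was raised is not given in the sources used here. Both groups are labelled with TGFbeta and with fibrosis, so a difference in the response to TGF-β1 and a difference between the backgrounds without it cannot be told apart. The labels match age and sex within littermate cohorts without giving either. They do not say that each array is a different animal, so p-values rest on the spread between these arrays. In the main tests the spread of each gene or row was moderated by that of all others.

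Values are log2 intensities, and a gene level is the median polish summary of the gene's probe sets. Array medians ran from 7.27 to 7.33 in CBAxB6-TGFbeta and from 7.32 to 7.34 in B6-TGFbeta. Markers of the proximal tubule, the main epithelium of the kidney cortex, were abundant in all arrays, with a mean level over 8 markers of 9.31 to 9.71 in CBAxB6-TGFbeta and 10.85 to 11.04 in B6-TGFbeta. Array 2 of B6-TGFbeta stood apart by markers of neighbouring tissues. The fat genes Ucp1, Cidea, Adipoq and Cfd and the adrenal genes Cyp11b1 and Chgb were each more than 2 log2 units above both other arrays of the group. Ucp1, the uncoupling protein of brown fat, was at 10.93 there against 5.13 and 5.42 in the other B6-TGFbeta arrays, and Chgb, a granule protein of the adrenal medulla, was at 11.21 against 5.85 and 6.32. The mean over 8 adrenal markers was 5.67 to 5.79 in CBAxB6-TGFbeta, and in B6-TGFbeta it was 6.46 in array 1, 8.31 in array 2 and 5.80 in array 3. Results below are therefore also given without array 2 where a call rests on it.

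TEAD factors recognise the letters GGAATG, or CATTCC when read on the other strand, and these were searched on both strands in the 250 bases before each RefSeq transcription start of the genes (build GRCm38.p6). RefSeq promoters were at hand for 7 of the 10 genes, and 6 of them, Ankrd1, Cyr61, Axl, Yap1, Wwtr1 and Amotl2, held at least 1 match, while Lats2 held none. Counted by window, 7 of the 9 windows of these genes held one, and the 2 windows of Wwtr1 overlap and share their match. Among 32851 promoter windows of the same length, 12.6% held one. The genes were named for their link to YAP, TAZ and TEAD, so this is a description and not a test. The promoters of 3 target genes with separated groups, Ankrd1, Cyr61 and Axl, are shown with that of Yap1, whose groups overlapped, all 5′ to 3′ on the minus strand of the chromosome, which is the gene's own strand. Capitals mark the matches.
Ankrd1, chr19:36119845-36120094: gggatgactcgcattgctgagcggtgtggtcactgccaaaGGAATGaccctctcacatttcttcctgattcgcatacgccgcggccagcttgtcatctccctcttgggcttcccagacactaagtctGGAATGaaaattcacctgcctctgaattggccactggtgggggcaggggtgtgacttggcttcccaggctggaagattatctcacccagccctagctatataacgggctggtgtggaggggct
Cyr61, chr3:145649986-145650235: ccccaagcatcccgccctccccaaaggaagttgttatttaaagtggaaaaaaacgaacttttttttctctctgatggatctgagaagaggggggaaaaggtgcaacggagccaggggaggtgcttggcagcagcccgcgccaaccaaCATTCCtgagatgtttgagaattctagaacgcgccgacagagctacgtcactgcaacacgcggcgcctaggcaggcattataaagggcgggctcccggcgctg
Axl, chr7:25788734-25788983: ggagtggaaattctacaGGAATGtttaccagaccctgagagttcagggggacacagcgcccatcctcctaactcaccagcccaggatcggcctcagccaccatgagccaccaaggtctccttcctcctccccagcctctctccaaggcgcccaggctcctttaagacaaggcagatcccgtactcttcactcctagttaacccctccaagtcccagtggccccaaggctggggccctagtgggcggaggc
Yap1, chr9:8004597-8004846: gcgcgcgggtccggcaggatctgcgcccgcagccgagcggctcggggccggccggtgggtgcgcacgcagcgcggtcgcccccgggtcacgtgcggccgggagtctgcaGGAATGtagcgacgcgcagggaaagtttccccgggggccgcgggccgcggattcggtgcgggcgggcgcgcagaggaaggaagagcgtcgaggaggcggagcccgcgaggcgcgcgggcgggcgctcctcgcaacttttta
The matches began 210 and 123 bases before the start in Ankrd1, 103 bases before it in Cyr61, 233 in Axl and 141 in Yap1. A match was thus present both in promoters of genes whose groups were separated and in that of a gene whose groups were not.

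Of the 10 genes, Ankrd1 and Tead1 rose in CBAxB6-TGFbeta kidneys, none fell and 8 did not pass an adjusted p of 0.05; at an unadjusted p under 0.05 there were 4 higher and 0 lower genes, against 10.5% higher and 11.1% lower of all genes. The test was limma over all 20416 genes with Benjamini-Hochberg adjustment, in which 3.08% of all genes were called higher and 4.57% lower, 7.65% together. Over the 10 genes, 5 differences were positive and 5 negative, with a median log2 difference of 0.02, the same as the median of 0.02 over all genes. The groups did not overlap in Ankrd1, Tead1, Cyr61 and Axl, with CBAxB6-TGFbeta on the higher side in all 4, against 13.5% of all genes, and no gene was separated in the other direction, against 13.4% of all genes. In whole kidneys a change in the number of cells that express a gene and a change in its RNA per cell cannot be told apart.

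**Figure D1:**
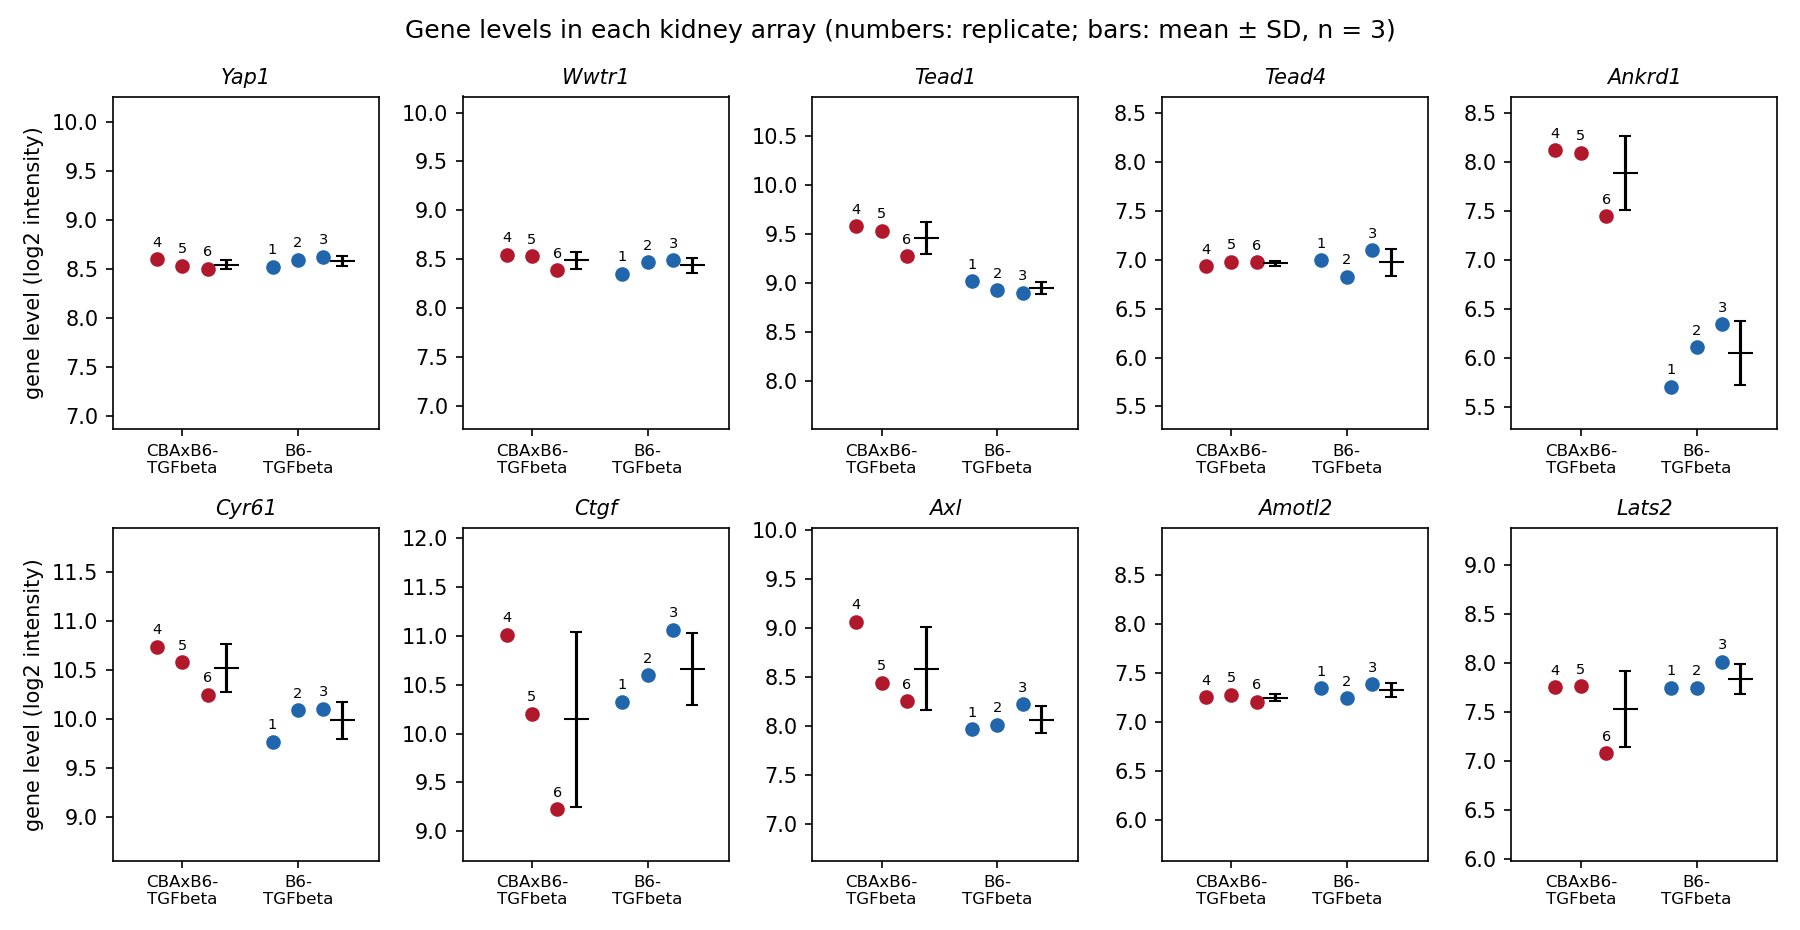
Gene levels (y axis, log2 intensity) of the 10 genes in CBAxB6-TGFbeta arrays 4 to 6 (red, left) and B6-TGFbeta arrays 1 to 3 (blue, right), with mean ± SD beside the points. Every panel spans the same log2 range. The groups are widely apart in Ankrd1, narrowly apart in Tead1, Cyr61 and Axl, and overlap in the other 6 genes.

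Neither coactivator passed, and in both the groups overlapped. Yap1 stood at 8.60, 8.54 and 8.50 in CBAxB6-TGFbeta arrays 4, 5 and 6, against 8.52, 8.59 and 8.63 in B6-TGFbeta arrays 1, 2 and 3. The log2 difference of -0.03 (SE 0.09) had a 95% interval of -0.24 to 0.17 (adjusted p 0.878, limma). Wwtr1 stood at 8.55, 8.53 and 8.39 in CBAxB6-TGFbeta, against 8.35, 8.47 and 8.49 in B6-TGFbeta. The log2 difference was 0.05 (SE 0.10, 95% interval -0.17 to 0.27, adjusted p 0.830). Both intervals exclude a change of 1 log2 unit in either direction.

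Among their DNA-binding partners, Tead1 rose and Tead4 did not pass. Tead1 had levels of 9.58, 9.53 and 9.27 in CBAxB6-TGFbeta, against 9.02, 8.92 and 8.90 in B6-TGFbeta. Every CBAxB6-TGFbeta array lay above every B6-TGFbeta array, and the spread within B6-TGFbeta was small, at 8.95 ± 0.06 (SD, n = 3) against 9.46 ± 0.17 (SD, n = 3) in CBAxB6-TGFbeta. The log2 difference was 0.51 (SE 0.11), a 1.43-fold rise with an adjusted p of 0.0248 in limma. Tead4 had levels of 6.93, 6.98 and 6.98 in CBAxB6-TGFbeta, against 6.99, 6.83 and 7.10 in B6-TGFbeta. The CBAxB6-TGFbeta values fell inside the range of B6-TGFbeta, with a log2 difference of -0.01 (SE 0.10, 95% interval -0.24 to 0.22, adjusted p 0.972). This sign turned to 0.02 when the arrays were centred on their medians and to 0.01 after a second quantile normalization. The log2 ratio of Tead1 to Tead4 was 0.52 larger in CBAxB6-TGFbeta, with no overlap between the groups.

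Ankrd1, which encodes an ankyrin repeat protein best known from cardiac muscle and is among the most widely used readouts of YAP and TAZ, had by far the largest difference of the 10 genes. Its levels were 8.12, 8.10 and 7.45 in CBAxB6-TGFbeta arrays 4, 5 and 6, against 5.71, 6.11 and 6.35 in B6-TGFbeta arrays 1, 2 and 3. The lowest CBAxB6-TGFbeta array was more than 1 log2 unit above the highest B6-TGFbeta array. The log2 difference was 1.84 (SE 0.21, 95% interval 1.36 to 2.31), a 3.57-fold rise with an adjusted p of 0.00138 in limma. By size of increase Ankrd1 ranked 27 of 20416 genes, and by p-value 136. None of 8 markers of striated muscle, where Ankrd1 is abundant, passed, and their mean level was 6.19 to 6.30 in CBAxB6-TGFbeta and 6.14 to 6.39 in B6-TGFbeta. The part of muscle tissue in the Ankrd1 values was not tested.

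Cyr61 and Ctgf encode matricellular proteins of the CCN family, secreted proteins that bind integrins and growth factors, and both are direct targets of YAP and TEAD. The groups were separated in Cyr61 and overlapped in Ctgf, and neither passed. Cyr61 had levels of 10.74, 10.58 and 10.25 in CBAxB6-TGFbeta, against 9.77, 10.09 and 10.10 in B6-TGFbeta. All 3 CBAxB6-TGFbeta arrays were above all B6-TGFbeta arrays, array 6 by a narrow margin. The log2 difference of 0.54 (SE 0.15, 95% interval 0.20 to 0.87) missed the threshold at an adjusted p of 0.0609 in limma. It passed under 6 of 16 alternatives, those with the mean of the probe sets, without dim probe sets, with median centring, without dim genes, with trended and robust moderation and with array weights, where the adjusted p was 0.0192 to 0.0474. Over the alternatives with 2 or more arrays a group it ran between 0.0192 and 0.360.

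Ctgf had levels of 11.01, 10.20 and 9.22 in CBAxB6-TGFbeta, against 10.32, 10.59 and 11.06 in B6-TGFbeta. Array 4 was near the top of the B6-TGFbeta range, array 5 just below its lower end and array 6 far below it, so that the groups overlapped. The spread within CBAxB6-TGFbeta, an SD of 0.89 around a mean of 10.15, was the widest of the 10 genes, against an SD of 0.37 around 10.66 in B6-TGFbeta. The log2 difference of -0.51 (SE 0.38, 95% interval -1.37 to 0.34) did not pass (adjusted p 0.497, limma), and without CBAxB6-TGFbeta array 6 it was -0.05.

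The log2 ratio of Cyr61 to Ctgf was 1.05 larger in CBAxB6-TGFbeta than in B6-TGFbeta, and that of Ankrd1 to Ctgf was 2.35 larger, with no overlap between the groups in either ratio. These ratios, and those of Tead1 to Tead4 above and Axl to Mertk below, make 4 pairs that were chosen after their values were seen. Each gave a p of 0.1 in a two-sided exact permutation test over the 20 possible groupings of the arrays, also 0.1 after Benjamini-Hochberg adjustment, which is the smallest p that 3 arrays against 3 can give. The groups were already separated in all 4 ratios when these were chosen, so this result was fixed and adds no evidence.

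Axl encodes a receptor tyrosine kinase of the TAM family, which senses dying cells through bridging ligands and is expressed by macrophages, fibroblasts and endothelial cells. Its levels were 9.06, 8.44 and 8.25 in CBAxB6-TGFbeta, against 7.96, 8.01 and 8.22 in B6-TGFbeta. The groups were separated by a margin of only a few hundredths between CBAxB6-TGFbeta array 6 and B6-TGFbeta array 3. The log2 difference of 0.52 (SE 0.19, 95% interval 0.09 to 0.95) did not pass (adjusted p 0.148, limma). It leaned on CBAxB6-TGFbeta array 4, without which it was 0.14.

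Amotl2 and Lats2 are targets that feed back on the pathway. Amotl2, an angiomotin protein that binds YAP and keeps it out of the nucleus, stood at 7.25, 7.28 and 7.21 in CBAxB6-TGFbeta, against 7.35, 7.25 and 7.39 in B6-TGFbeta. The groups overlapped, with a log2 difference of -0.08 (SE 0.09, 95% interval -0.29 to 0.13, adjusted p 0.703). Lats2, one of the kinases that phosphorylate YAP and TAZ, stood at 7.75, 7.76 and 7.08 in CBAxB6-TGFbeta, against 7.75, 7.75 and 8.01 in B6-TGFbeta. Array 6 was low and arrays 4 and 5 lay within the range of B6-TGFbeta. The log2 difference of -0.31 (SE 0.18, 95% interval -0.72 to 0.11, adjusted p 0.387) came to -0.04 without array 6.

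CBAxB6-TGFbeta array 6 held the lowest value of its group in 9 of the 10 genes, all but Tead4. In Ctgf and Lats2 the other CBAxB6-TGFbeta arrays overlapped B6-TGFbeta, while in Ankrd1, Tead1, Cyr61 and Axl array 6 remained above every B6-TGFbeta array. Array 6 also had the lowest median of the 6 arrays, 7.27 against 7.31 and 7.33 in the other CBAxB6-TGFbeta arrays. With all arrays centred on their medians, the log2 difference of Ctgf was -0.48 and that of Lats2 -0.28.

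**Figure D2:**
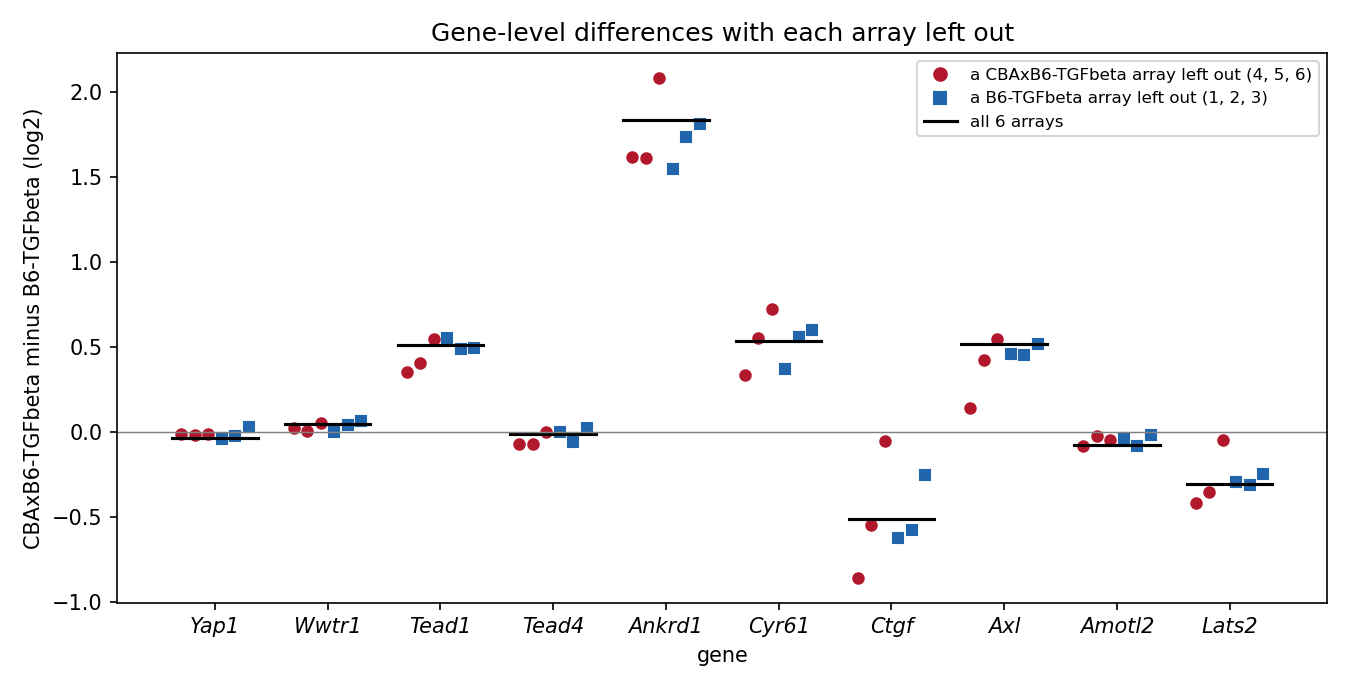
Log2 difference (y axis, CBAxB6-TGFbeta minus B6-TGFbeta) of each gene with 1 array left out (points, in the order 4, 5, 6, then 1, 2, 3) and with all 6 arrays (black line). Ankrd1 stays between 1.55 and 2.08 and Tead1 between 0.36 and 0.55, while Ctgf and Lats2 come close to 0 without array 6 and Axl drops to 0.14 without array 4.

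With 5 arrays the calls were mostly lost although the directions of Ankrd1, Tead1, Cyr61 and Axl were kept. For Ankrd1 the log2 difference stayed between 1.55 and 2.08, but the adjusted p was 0.115, 0.101 and 0.0787 without B6-TGFbeta array 1, 2 or 3, and 0.100 and 0.0912 without CBAxB6-TGFbeta array 4 or 5. It passed without array 6 (0.0211). For Tead1 the log2 difference stayed between 0.36 and 0.55, with adjusted p of 0.129, 0.114 and 0.106 without B6-TGFbeta array 1, 2 or 3, of 0.241 and 0.215 without CBAxB6-TGFbeta array 4 or 5, and of 0.0337 without array 6. Array 2 had the highest fat and adrenal markers, and the adrenal mean was also higher in array 1 than in array 3 (6.46 against 5.80). Leaving out array 2 thus does not remove all of the adrenal signal. Without array 2 the log2 differences of Ankrd1, Tead1, Cyr61 and Axl were 1.74, 0.49, 0.56 and 0.46. When B6-TGFbeta was represented by array 3 alone, an alternative added with the data in view, they were 1.61, 0.52, 0.33 and 0.36. That leaves the spread within B6-TGFbeta unmeasured, so these are values with no call. Over the alternatives with 2 or more arrays a group the adjusted p ran between 0.000299 and 0.115 for Ankrd1 and between 0.00770 and 0.241 for Tead1, and both also missed the threshold when variances were not moderated across genes (0.108 and 0.141).

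Each probe set covers a stretch of exon, so the rows of a gene show whether its difference runs along the transcript. Of the 119 probe sets, 3 were called higher and none lower by limma over all rows, against 0.236% and 0.299% of all rows, 0.535% together. At an unadjusted p under 0.05, 29 rows were higher and 4 lower, against 6.48% and 7.64% of all rows. The groups were separated upwards in 31 of the 119 and downwards in 6, against 9.91% and 10.5% of all rows. Rows of 1 gene are measured on the same RNA and are not replicates of each other.

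In Ankrd1 all 11 probe sets had a positive difference, from 0.77 to 3.02, and 10 had separated groups. The row with the largest difference had 8.46, 8.81 and 8.02 in CBAxB6-TGFbeta, against 5.11, 5.73 and 5.39 in B6-TGFbeta (log2 difference 3.02, SE 0.27, adjusted p 0.0220, limma over all rows). The second row called had a difference of 2.17 (adjusted p 0.0278). The row with the smallest difference, 0.77, overlapped between the groups. The brightest row gave 0.86 and was not called over all rows (adjusted p 0.154, limma). It also did not pass when each gene is represented by its brightest row (adjusted p 0.0530). The rise therefore ran through the gene, while its size depended on the row.

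In Tead1, 12 of 13 probe sets were positive, from -0.12 to 1.35, and 8 were separated upwards. The row with the largest difference had 11.01, 10.87 and 11.00 in CBAxB6-TGFbeta, against 9.61, 9.78 and 9.43 in B6-TGFbeta. It was the only Tead1 row called (log2 difference 1.35, SE 0.17, adjusted p 0.0369). The brightest Tead1 row gave 0.59 and was not called over all rows (adjusted p 0.175, limma). It also did not pass when each gene is represented by its brightest row (adjusted p 0.0506). In Cyr61 all 5 rows were positive, from 0.37 to 0.91, and 3 were separated. The row with the largest difference was also the tightest, with 10.74, 10.66 and 10.74 in CBAxB6-TGFbeta against 9.75, 9.81 and 9.86 in B6-TGFbeta, and it missed the threshold over all rows (adjusted p 0.0654). In Axl 19 of 23 rows were positive, 8 were separated upwards and 1 downwards, and the range was -0.50 to 1.03. The row separated downwards was the lowest and also the dimmest Axl row, with means of 4.09 in CBAxB6-TGFbeta and 4.59 in B6-TGFbeta. The brightest Axl row gave 0.91 and was not called over all rows (adjusted p 0.130, limma). It passed when each gene is represented by its brightest row (adjusted p 0.0404).

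In the 6 genes with overlapping groups the rows pointed both ways. Yap1 had 9 negative and 3 positive rows between -0.43 and 0.62, and 1 row was separated in each direction. The lowest row had 7.08, 7.17 and 6.75 in CBAxB6-TGFbeta against 7.53, 7.37 and 7.38 in B6-TGFbeta (adjusted p 0.353). The highest had 11.22, 11.23 and 11.28 in CBAxB6-TGFbeta against 10.38, 10.89 and 10.61 in B6-TGFbeta (adjusted p 0.215). Wwtr1 had 6 positive and 5 negative rows between -0.33 and 0.60, and Tead4 had 6 positive and 10 negative rows between -0.49 and 0.82. The lowest Wwtr1 row was its dimmest, with means of 4.83 in CBAxB6-TGFbeta and 5.16 in B6-TGFbeta. Amotl2 had 4 positive and 7 negative rows between -0.94 and 0.51. In Lats2, 9 of 12 rows were negative, the range was -0.80 to 0.28, and its brightest row gave 0.23. The lowest Lats2 row was its dimmest, with means of 3.28 in CBAxB6-TGFbeta and 4.08 in B6-TGFbeta. In Ctgf 4 of 5 rows were negative, from -0.80 to 0.07, and the brightest row was the positive one, with 11.73, 11.08 and 11.28 in CBAxB6-TGFbeta against 11.06, 11.42 and 11.39 in B6-TGFbeta. In each of the 4 negative Ctgf rows array 6 lay below every B6-TGFbeta array. The dimmest of them had 7.21 in array 6 against 8.68 to 9.19 in B6-TGFbeta, and the brightest of them 10.82 against 10.97 to 11.52. In the positive row array 6 lay within the range of B6-TGFbeta.

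**Figure D3:**
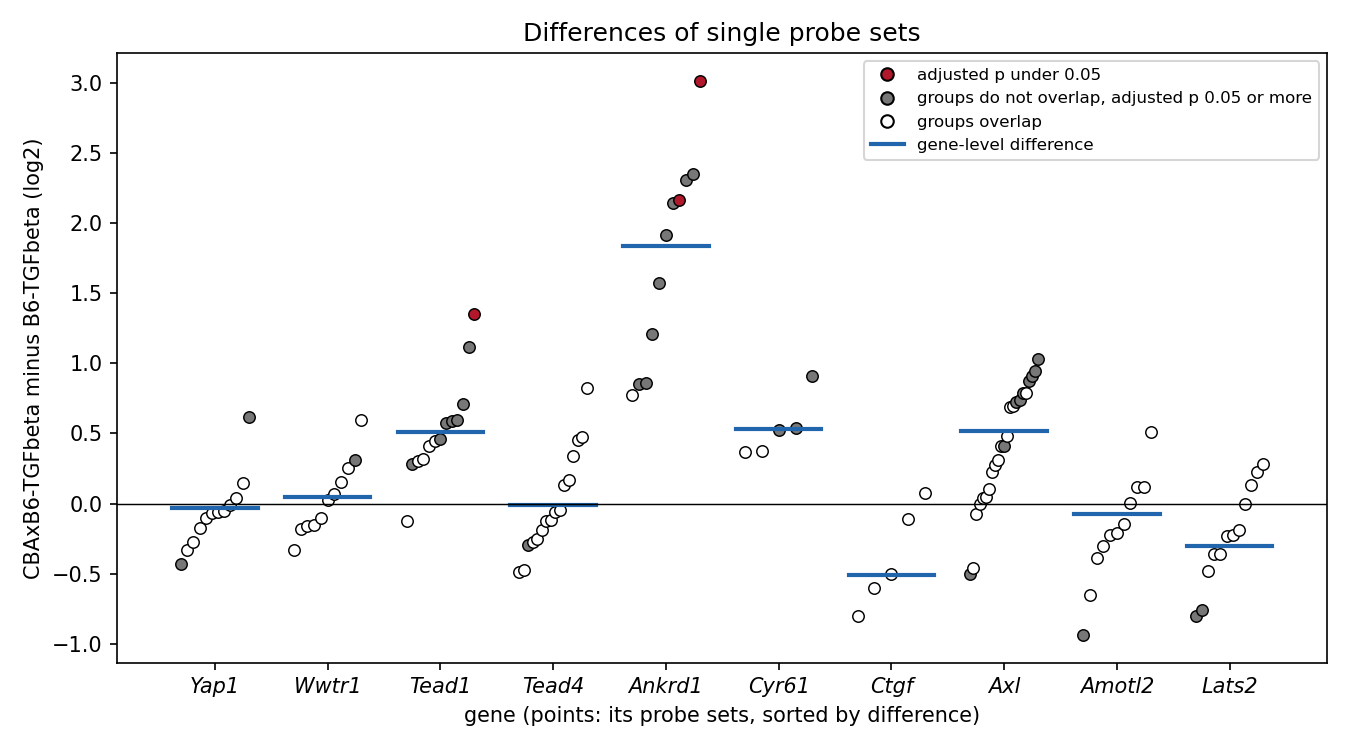
Log2 difference (y axis, CBAxB6-TGFbeta minus B6-TGFbeta) of every probe set of the 10 genes, sorted within each gene (red, called; grey, groups separated; white, groups overlapping), with the gene-level difference as a blue line. All 11 rows of Ankrd1 and all 5 of Cyr61 lie above 0, whereas every other gene has rows on both sides of it, Tead1 with only 1 below.

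The rest of the pathway was read from lists of other genes. Among 25 Hippo kinases and upstream regulators, which control whether YAP and TAZ are phosphorylated or degraded, none was called in limma over all genes, with a median log2 difference of -0.04. The smallest p-values were those of Btrc, an F-box protein that targets YAP for degradation (8.40 ± 0.11 in CBAxB6-TGFbeta and 8.74 ± 0.03 in B6-TGFbeta, SD, n = 3 each; log2 difference -0.34, adjusted p 0.0705), and Mob1a, the LATS cofactor annotated as Mobkl1b (8.23 ± 0.08 in CBAxB6-TGFbeta and 7.93 ± 0.06 in B6-TGFbeta, SD, n = 3 each; log2 difference 0.30, adjusted p 0.0985). At an unadjusted p under 0.05 the list gave 4 higher and 2 lower genes, against 10.5% and 11.1% of all genes. All 25 differences lay between -0.34 and 0.31.

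Among 6 other TEAD and Vgll genes, Vgll3 rose and 5 did not pass, where 3.08% of all genes were called higher and 4.57% lower. At an unadjusted p under 0.05 in limma there was 1 higher and 1 lower gene, against 10.5% and 11.1% of all genes. Vgll3, a vestigial-like cofactor that binds TEAD, had levels of 8.38, 8.22 and 7.95 in CBAxB6-TGFbeta, against 7.28, 7.54 and 7.79 in B6-TGFbeta. The groups were separated, with a log2 difference of 0.65 (SE 0.15, adjusted p 0.0364, limma). This call was lost without any 1 of the 6 arrays (adjusted p 0.138 to 0.351), and the difference was 0.38 with the mean of its probe sets (adjusted p 0.346) and, as a value with no call, 0.21 with B6-TGFbeta array 3 alone. Over the alternatives with 2 or more arrays a group the adjusted p ran between 0.0117 and 0.351.

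Of 16 further genes of a YAP and TAZ signature derived from human tumours, 2 rose, none fell and 14 missed the threshold. Of all genes, 3.08% were called higher and 4.57% lower. At an unadjusted p under 0.05 in limma the list gave 6 higher and 2 lower genes, against 10.5% and 11.1% of all genes. The median log2 difference of the 16 genes was 0.00060, with 8 differences in each direction. Myof, which encodes the membrane repair protein myoferlin, had levels of 9.96, 9.56 and 9.48 in CBAxB6-TGFbeta, against 8.70, 8.62 and 8.54 in B6-TGFbeta (log2 difference 1.05, SE 0.13, adjusted p 0.00256). F3, which encodes tissue factor, the trigger of coagulation, had levels of 8.84, 8.49 and 8.63 in CBAxB6-TGFbeta, against 7.79, 7.73 and 7.27 in B6-TGFbeta (log2 difference 1.06, SE 0.15, adjusted p 0.00472). These are rises of 2.07-fold and 2.08-fold, with well separated groups. The brightest row of Myof alone gave 0.47 (adjusted p 0.252 when each gene is represented by its brightest row). Without B6-TGFbeta array 1, 2 or 3 the adjusted p was 0.145, 0.117 and 0.120 for Myof and 0.137, 0.104 and 0.0752 for F3, and without CBAxB6-TGFbeta array 5 it was 0.0764 for Myof and 0.0718 for F3. F3 also missed the threshold without array 4 or 6, at 0.0721 and 0.0682.

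Of 7 measured genes among 9 others often read out for YAP and TAZ, none was called in limma over all genes, with a median of 0.47, and 4 higher and 1 lower genes at an unadjusted p under 0.05, against 10.5% and 11.1% of all genes. Myc, the growth regulator, was at 9.22 ± 0.57 in CBAxB6-TGFbeta and 8.30 ± 0.15 in B6-TGFbeta (SD, n = 3 each; log2 difference 0.91, adjusted p 0.0527). Ccnd1, a cyclin of the G1 phase, pointed the other way, at 9.85 ± 0.26 in CBAxB6-TGFbeta and 10.38 ± 0.15 in B6-TGFbeta (SD, n = 3 each; log2 difference -0.52, adjusted p 0.0590).

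Relatives of the target genes and their ligands gave 1 lower gene of 10, where 4.57% of all genes were called lower. At an unadjusted p under 0.05 in limma there were 2 higher and 2 lower genes, against 10.5% and 11.1% of all genes. Mertk, another TAM receptor with a role in clearing dying cells, fell to 9.15, 9.02 and 9.15 in CBAxB6-TGFbeta, against 9.93, 9.85 and 9.88 in B6-TGFbeta. Both groups were tight, and the log2 difference was -0.78 (SE 0.09, adjusted p 0.00174, limma). Without B6-TGFbeta array 1, 2 or 3 the difference held between -0.74 and -0.77 and the adjusted p was 0.0539, 0.0575 and 0.0561. The log2 ratio of Axl to Mertk was 1.30 larger in CBAxB6-TGFbeta. The ligands of these receptors, named after their values were seen, did not pass and lay on opposite sides of 0, with log2 differences of 0.50 in Pros1 (adjusted p 0.0542) and -0.37 in Gas6 (adjusted p 0.0546). The brightest row of Mertk gave -0.46 (adjusted p 0.160 when each gene is represented by its brightest row).

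**Figure D4:**
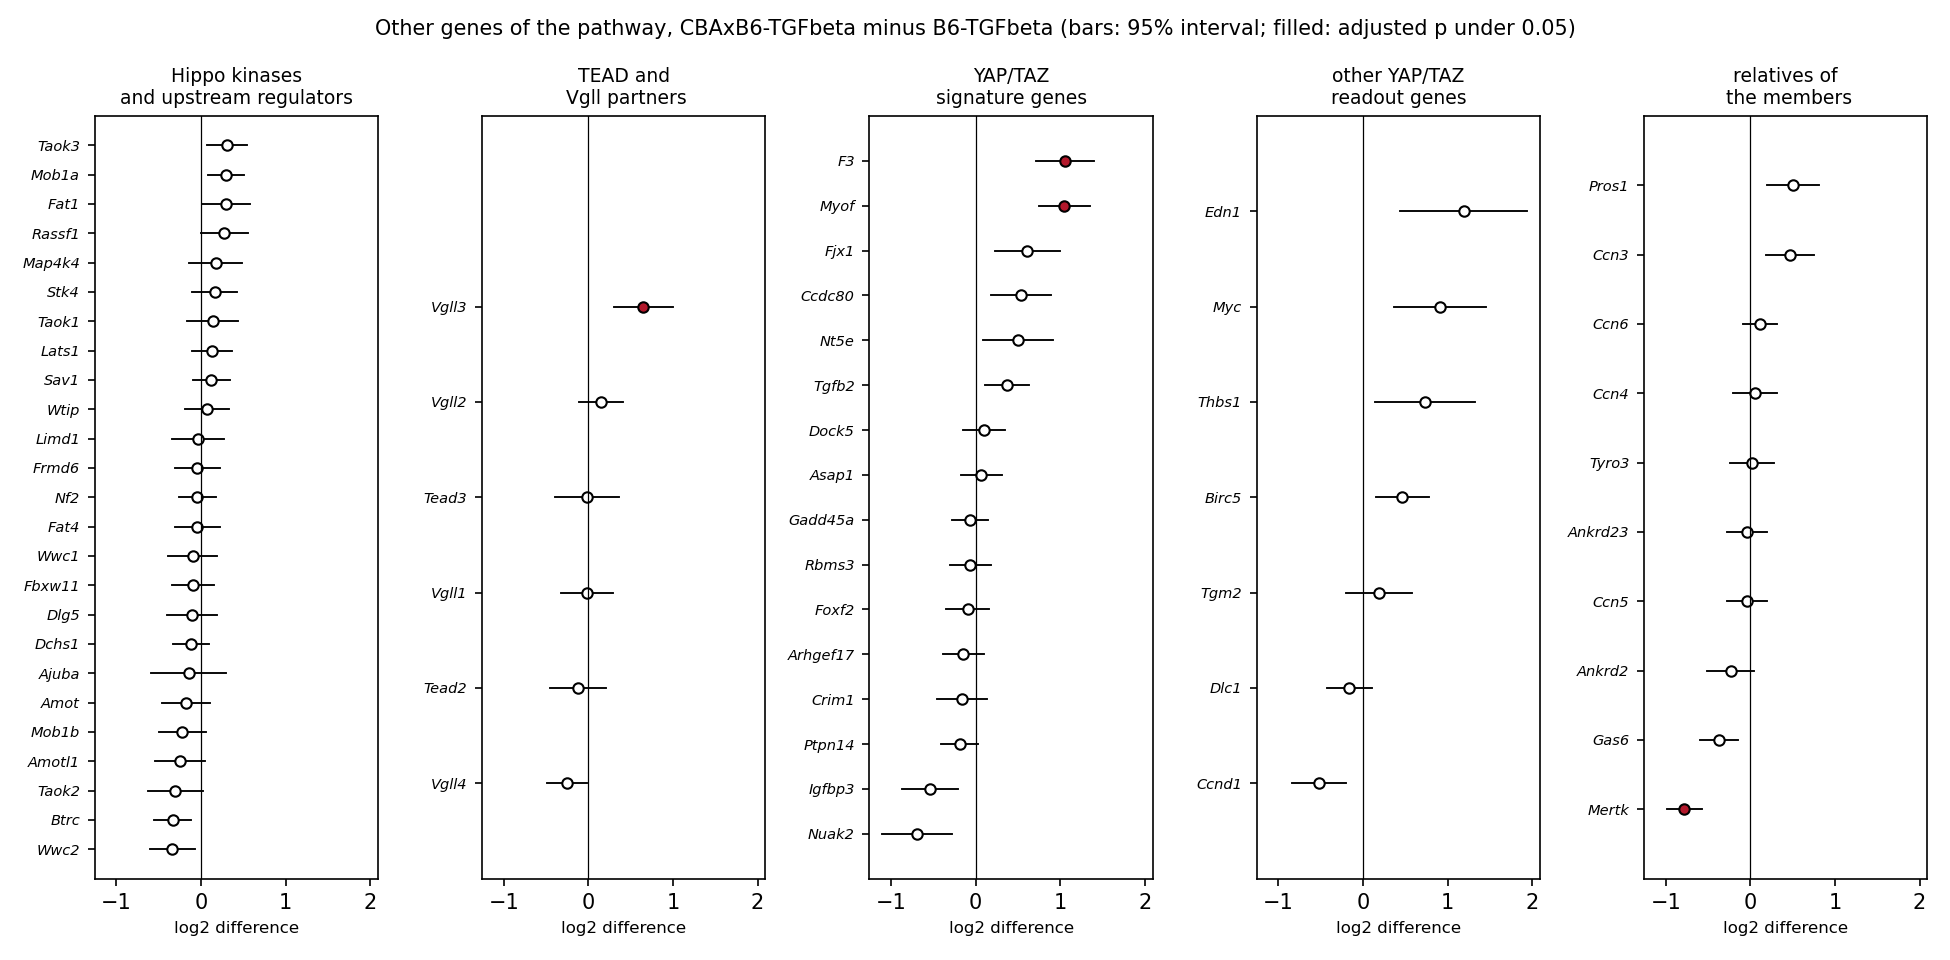
Log2 differences (x axis, CBAxB6-TGFbeta minus B6-TGFbeta) of 64 further genes in 5 lists, with 95% intervals; filled points passed the threshold. Myof, F3 and Vgll3 are the genes called higher and Mertk the one called lower, and the Hippo kinases and regulators lie between -0.34 and 0.31.

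Markers of cell types that can express these genes moved between the groups. For comparison, 3.08% of all genes were called higher and 4.57% lower. Of 8 macrophage markers 5 rose and none fell, and their mean level was 7.98 to 8.45 in CBAxB6-TGFbeta and 7.05 to 7.33 in B6-TGFbeta. Of 8 fibroblast and myofibroblast markers 2 rose and 6 did not pass, with 7 differences positive and 1 negative. Their mean level was 9.53 to 9.83 in CBAxB6-TGFbeta and 9.14 to 9.26 in B6-TGFbeta. Fat markers averaged 6.16 to 6.64 in CBAxB6-TGFbeta and 6.13, 8.17 and 6.10 in B6-TGFbeta arrays 1, 2 and 3, and none of 8 passed. All 8 proximal tubule markers and 2 of 4 podocyte markers fell, and of 6 endothelial markers 3 fell, with mean levels of 9.64 to 9.67 in CBAxB6-TGFbeta and 9.98 to 10.10 in B6-TGFbeta. The part of these shifts in the values of Ankrd1, Tead1, Cyr61, Axl, Ctgf, Myof, F3, Vgll3 and Mertk was not tested.

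Likeness of pattern was measured as the root mean square difference between the deviations of a pair of genes from their own means over the 6 arrays, among genes on at least 3 probe sets, and is given as a description. The genes nearest to Ankrd1 were the collagen gene Col12a1 (0.15), the oncostatin M receptor gene Osmr (0.16) and Casp4 (0.20). The nearest to Cyr61 were Sorbs2 (0.07), Ppp1r14b (0.07) and Havcr2 (0.07), and the nearest to Ctgf were Cpne7 (0.21), Nupr1 (0.28) and Lgals3bp (0.29). Among the 10 genes themselves, Cyr61 lay closest to Tead1 (0.16) and Ctgf closest to Lats2 (0.37), both with array 6 well below all other arrays. Array 6 was also below every B6-TGFbeta array in Yap1 and Amotl2, but narrowly. The measure is in log2 units and not scaled, so it tends to be smaller between genes that vary little.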

How the data were processed

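Per the labels, total RNA was hybridised to an Affymetrix array. The authors deposited log2 values, 1 row for each exon-level probe set and 1 column for each array. The submitters' processing notes name RMA and Partek with no settings; neither the scaling between arrays nor the annotation's build is given in the sources used here. Of 241576 rows, 212097 carried 1 gene symbol, 4475 several and 25004 none, and no row with several symbols held one of the 10 genes. A median polish (Tukey) of each gene's rows gave 20416 gene levels. Differences are CBAxB6-TGFbeta minus B6-TGFbeta. They were tested two-sided with limma 3.58.1 in R 4.3.3, with 1 group term over all 6 arrays. P-values were adjusted by Benjamini-Hochberg over all genes or, for probe sets, over all rows, with a threshold of 0.05. SE and 95% intervals are those of the moderated fit. Precision is limited by having 3 arrays a group.

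The genes, lists and tests were chosen with earlier results of these data known. Named from each list were up to 4 called genes with the smallest p, or up to 2 as values where none was called; any other is marked. Of 67 listed genes, 64 were measured. On simulated arrays with 20416 genes, this test recovered 97.1% of genes changed by -2 and 100% of those changed by 2. It recovered 76.5% at -1, 69.7% at 1, 6.06% at -0.5 and 12.1% at 0.5, and 4 of its 125 calls were unchanged genes. Only 33 or 34 genes were changed at each size, and the real arrays gave 1562 calls. The adjustment depends on how many genes change, so these shares do not carry over to the real arrays. Alternatives were other gene summaries, scalings, filters on dim rows or genes, variance models, array weights and each array left out.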

Additional observations from a re-analysis of the deposited data

How the results depend on the processing

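Ankrd1, Tead1, Cyr61 and Axl kept their direction under all 16 alternatives, at log2 differences of 0.86 to 2.08, 0.36 to 0.59, 0.33 to 0.73 and 0.14 to 0.91. Ankrd1 and Tead1 passed in 8 each, Cyr61 in 6 and Axl in 1. With the brightest row of each gene, 1 of the 10 genes was called, and Ctgf turned to 0.0745, Amotl2 to 0.0062 and Lats2 to 0.23; all genes gave 617 calls. Without moderation of the variances 0 of the 10 genes, 63 of all genes, 1 gene of the other lists and 0 of the 119 rows were called, against 2, 1562, 4 and 3 with it. With array 3 as the only B6-TGFbeta array, chosen after seeing the data, these counts were 0 genes, 40 of all genes and 0 of the other lists, and Wwtr1 turned to -0.0421; the lone array is assumed to vary like CBAxB6-TGFbeta, so these counts show no loss of a call. With each array left out, 0 to 2 of the 10 genes, 57 to 554 of all genes, 0 to 4 genes of the other lists and 0 to 3 of the 119 rows were called. The other lists gave 13 calls with the mean of the rows, 11 without the dimmer rows of each gene, 8 with median centring, 13 without the dimmest genes, 9 with trended and robust moderation and 15 with array weights. Of the 119 rows, 9, 11 and 5 were called without the dimmest rows, with trended and robust moderation and with array weights. Tead4, near 0, turned to 0.0045 (mean of rows), 0.013 (quantile), 0.016 (centring) and 0.0067 (array weights). With an array left out it lay between -0.0701 and 0.0277 and Yap1 between -0.0374 and 0.0288. The causes were not tested. No paired analysis was possible because the groups share no replicate numbers.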
